A study of Rattus norvegicus with 24 samples.

Results

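The ovary of rats given the androgen dihydrotestosterone (DHT) was set against 3 other tissues of DHT-treated rats, prostate, skin and forebrain, to find the genes whose level was higher, or lower, in ovary than in each of them. The members were the 3 ovary arrays of the DHT group, of 24 arrays in all, and they were compared with 3 prostate, 3 skin and 3 forebrain DHT arrays. The ovary came from intact female Sprague-Dawley rats of 12 weeks that had received 1 intraperitoneal injection of 10 mg/kg DHT, and the tissue was taken 16 h later, per the labels. The prostate, skin and forebrain came from males of the same strain and age that had been castrated 3 days before the same dose, and were also taken after 16 h. All 12 arrays therefore carried the androgen, and ovary differed from the other tissues in sex and in gonadal state as well as in tissue. These differences cannot be told apart from one another. A short design text speaks of castrated males for every tissue, whereas the labels of the ovary samples give intact females, and the labels were followed. The design text calls the 3 samples of a group biological replicates. The labels used here name neither the stage of the ovarian cycle nor whether the prostate, skin and forebrain of 1 number came from 1 male.

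The adult ovary is built of follicles, each an oocyte in a layer of granulosa cells with theca cells outside, of corpora lutea that form after ovulation, and of stroma under a surface epithelium. Theca and luteal cells take up cholesterol, move it into mitochondria and convert it through pregnenolone to progesterone and androgens, and granulosa cells convert the androgens to estrogens under the control of the pituitary hormones FSH and LH. Granulosa cells also secrete inhibin and anti-Mullerian hormone, members of the TGF-beta family that act on the pituitary and on neighbouring follicles.

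Promoters of 4 genes that carry the contrast are shown first, because the same short motif was counted in the promoters of the called genes matched by symbol. Each runs from 250 bases before to 50 bases after the annotated gene start, 5′ to 3′ on the strand of the gene, as RefSeq gives it for the GRCr8 assembly. Capitals mark AGGTCA on the strand shown, or TGACCT where it lies on the other strand. AGGTCA is the half-site recognised by many nuclear receptors, the NR5A receptors that act on steroidogenic genes among them. Cyp11a1 encodes the side-chain cleavage enzyme, Hsd3b1 the enzyme that makes progesterone, Inha the inhibin alpha subunit and Amh anti-Mullerian hormone.
Cyp11a1, chr8:67318415-67318714, plus strand: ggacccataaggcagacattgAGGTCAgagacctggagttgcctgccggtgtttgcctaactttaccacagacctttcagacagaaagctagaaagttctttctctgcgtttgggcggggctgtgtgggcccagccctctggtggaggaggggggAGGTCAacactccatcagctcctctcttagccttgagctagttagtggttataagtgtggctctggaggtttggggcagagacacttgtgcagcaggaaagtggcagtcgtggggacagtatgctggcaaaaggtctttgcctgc
Hsd3b1, chr2:188864645-188864944, minus strand: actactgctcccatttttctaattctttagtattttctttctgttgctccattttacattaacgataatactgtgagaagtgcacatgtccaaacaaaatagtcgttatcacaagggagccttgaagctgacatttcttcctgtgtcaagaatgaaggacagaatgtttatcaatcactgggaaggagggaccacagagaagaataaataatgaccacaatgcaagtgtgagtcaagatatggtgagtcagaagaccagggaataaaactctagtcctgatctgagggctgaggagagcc
Inha, chr9:84442859-84443158, plus strand: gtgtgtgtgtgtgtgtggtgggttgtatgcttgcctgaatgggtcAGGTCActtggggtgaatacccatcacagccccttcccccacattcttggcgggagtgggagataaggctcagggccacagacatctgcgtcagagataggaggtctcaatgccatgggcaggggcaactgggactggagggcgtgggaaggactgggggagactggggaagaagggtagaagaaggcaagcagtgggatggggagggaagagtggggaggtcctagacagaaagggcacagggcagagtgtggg
Amh, chr7:9559818-9560117, minus strand: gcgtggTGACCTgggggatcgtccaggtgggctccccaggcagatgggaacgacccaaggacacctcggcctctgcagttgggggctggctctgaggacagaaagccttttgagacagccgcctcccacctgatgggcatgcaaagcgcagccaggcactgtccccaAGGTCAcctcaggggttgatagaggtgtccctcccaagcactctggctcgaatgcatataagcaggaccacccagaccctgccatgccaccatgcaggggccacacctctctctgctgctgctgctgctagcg
The motif occurred 2 times in the Cyp11a1 window, 1 time in that of Inha and 2 times in that of Amh, and these 6 letters were not in the Hsd3b1 window on either strand. Of the promoter windows of genes higher in ovary than in every other tissue, 16.8% held it (542 genes matched by symbol). Of those of genes lower in ovary, 7.69% held it (164 genes matched). The share was 13.2% over the genes tested that could be matched (6166 genes) and 16.2% over all 33469 promoter windows of 300 bases. The share among the higher genes was thus close to that of all windows and above that of the genes tested. That among the lower genes was below both. These differences were not tested. Star, Gata4, Folr1, Hp, Fcer2, Cyp17a1, Cyp19a1 and Hsd17b1 had no entry in the promoter table.

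Levels are given throughout as log2 of the processed signal of a probe minus the 75th percentile of its array, so that a level of 0 is as bright as the 75th percentile of all probes and 1 unit is a 2-fold difference. The levels of different probes are not set against each other. A probe was tested where 3 or more of the 12 arrays had it well above background, which left 29940 genes, 7608 of them with a symbol. A gene bright in ovary alone passed this filter, so counts and medians over the tested members of a list describe those members and lend no support of their own. Between 61.8% and 78.5% of probes were well above background on the ovary arrays, against 59.3% to 73.1% on prostate, 55.1% to 67.9% on skin and 65.3% to 87.5% on forebrain arrays. The skin arrays were dim: the 75th percentile of the processed signal lay between 55.6 and 203 on skin arrays, against 1291 to 1447 on ovary arrays, and the lowest level well above background was -3.23 on skin array 1, against -6.84, -6.42 and -4.81 on the ovary arrays. Levels correlated between ovary arrays with Pearson's r of 0.976 to 0.985 across genes, which are not independent replicates, against 0.880 to 0.888 between ovary and prostate, 0.763 to 0.816 between ovary and skin and 0.756 to 0.778 between ovary and forebrain.

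Some arrays stood apart from the others of their tissue. On ovary array 2, 198 genes lay at least 2 log2 units above both other ovary arrays and 94 as far below both, against 8 and 70 on ovary array 1 and 73 and 61 on ovary array 3. Forebrain array 1 had 620 genes that far above both others, and skin array 1 had 476 above and 366 below. The main counts are therefore also given without these arrays.

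The markers of the ovary label were high on all 3 ovary arrays. Star, which carries cholesterol to the inner mitochondrial membrane, stood at 6.79, 6.88 and 6.65 on the ovary arrays, against -3.05, -4.0 and -4.56 on prostate, -5.07, -5.58 and -6.96 on skin and -4.30, -4.75 and -4.76 on forebrain arrays. Cyp11a1 stood at 6.24, 5.84 and 6.21 on the ovary arrays, against -8.09, -4.25 and -7.29 on prostate, -5.44, -6.97 and -6.98 on skin and -8.53, -7.29 and -8.30 on forebrain arrays. For Inha the levels were 6.52, 6.60 and 6.57 on the ovary arrays, against -1.68, -1.52 and -1.88 on prostate, -0.20, -0.19 and -0.84 on skin and -0.83, -0.68 and -0.64 on forebrain arrays. On every ovary array each of the 3 markers lay far above all 9 other arrays, and the 3 ovary arrays differed by at most 0.41 for any of them. Probes for Y-linked genes (9 listed) and for genes of X inactivation (8 listed) were not found under a symbol and were not analysed here.

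Ovary was higher than each of the 3 other tissues in 1813 genes (6.06% of those tested) and lower than each in 938 (3.13%), at an adjusted p under 0.05 and the same sign in all 3 comparisons (limma, Benjamini-Hochberg). Of these, 665 higher and 226 lower genes had a symbol. Taken one tissue at a time, ovary was higher than prostate in 5955 genes (19.9%) and lower in 6499 (21.7%), higher than skin in 8575 (28.6%) and lower in 10238 (34.2%), and higher than forebrain in 8933 (29.8%) and lower in 7606 (25.4%). In 1274 of the higher and 527 of the lower genes the smallest of the 3 differences was at least 2-fold. Every ovary array lay above all 9 other arrays in 2431 genes (8.12%) and below all of them in 1571 (5.25%), and this held for 1738 of the 1813 higher and 870 of the 938 lower genes. Against a single tissue, the ovary arrays lay wholly above prostate in 25.9% of genes and wholly below in 31.8%, above skin in 30.0% and below in 35.7%, and above forebrain in 35.9% and below in 33.0%. Because each of the 3 slides held 1 array of every tissue, a gene whose arrays did not overlap differed the same way within each slide.

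Without ovary array 2, 1664 genes were higher and 788 lower than in every other tissue, of which 1518 and 698 were among those above. Without skin array 1 the counts were 2017 and 1116, and without forebrain array 1 they were 1731 and 753. The median difference over all genes tested was -0.14 from prostate, -0.17 from skin and 0.03 from forebrain. Other scalings moved the median against skin to -1.14 (normexp background correction) and 0.20 (quantile normalization). Of the calls against skin, 45.6% were higher in ovary here, against 25.4% with normexp background correction and 57.5% with quantile normalization.

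**Figure D1:**
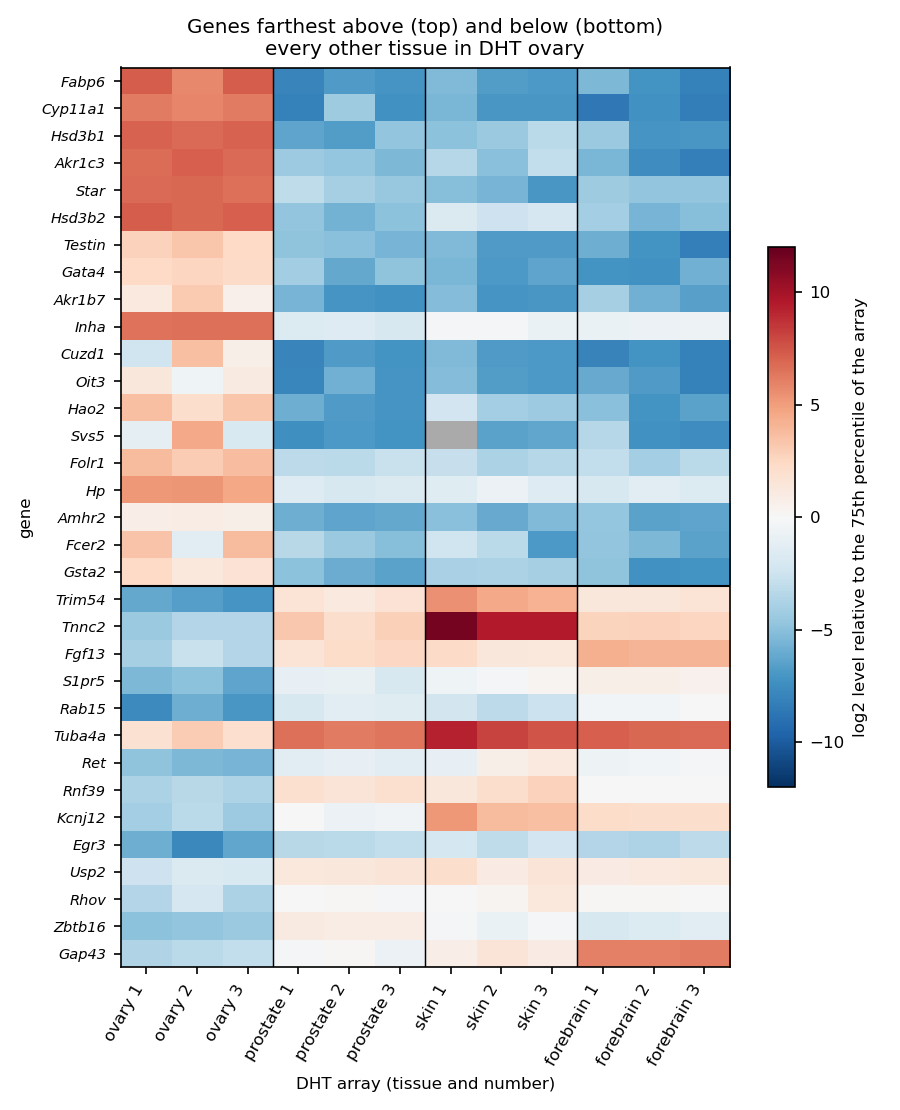
Level of 19 of the 20 genes farthest above (upper block) and 14 of the 15 farthest below (lower block) every other tissue, in rows, on each of the 12 DHT arrays, in columns with the 3 ovary arrays on the left. Colour is the log2 level relative to the 75th percentile of the array, grey marks a spot left out as an outlier, and Cuzd1, Svs5 and Fcer2 show the uneven ovary arrays.

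Genes of steroid synthesis were 5 of the 20 genes with a symbol that lay farthest above every other tissue, ranked by the smallest of the 3 differences. The ranking used measured levels, also where a probe was not well above background in another tissue, so that the order among the 20 is not settled. Of the 25 genes listed for it, 22 had a named probe and 21 were tested. Of these 21, 14 were higher in ovary than in each other tissue and none was lower. Over all genes tested these shares were 6.06% and 3.13%, which also apply to the counts of the lists below. The median difference of the tested members was 3.30, 3.28 and 4.66 log2 units from prostate, skin and forebrain in that order, against -0.14, -0.17 and 0.03 over all genes tested. At the entrance of the pathway, Scarb1, the HDL receptor that takes up cholesterol ester, stood at 6.90, 6.66 and 6.89 on the ovary arrays, against 1.48, 1.36 and 1.70 on prostate, 2.27, 3.66 and 3.45 on skin and 0.98, 1.09 and 1.13 on forebrain arrays. The nearest tissue was skin, with a difference of 3.69 ± 0.31 (limma's standard error, 3 arrays a tissue). Star exceeded its nearest tissue, prostate, by 10.64 ± 0.48. In skin Star was not well above background, and ovary was at least 2104-fold higher.

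At-least folds of this kind take the mean of the ovary arrays against the mean of, per array, the probe's own level or the lowest level well above background, whichever is higher. Cyp11a1 was well above background on 1 of 3 prostate arrays, and ovary was at least 1316-fold above skin and at least 3842-fold above forebrain, where it was not well above background. Its electron carriers were higher too. Fdx1, ferredoxin, stood at 6.32, 6.56 and 6.58 on the ovary arrays, against 3.01, 3.24 and 3.33 on prostate, 3.27, 2.58 and 2.78 on skin and 1.64, 1.40 and 1.37 on forebrain arrays. Fdxr, ferredoxin reductase, stood at 7.13 and 6.95 on the ovary arrays, against 0.32, 0.29 and 0.26 on prostate, 1.16, 1.1 and 0.79 on skin and 1.72, 1.53 and 1.45 on forebrain arrays, with ovary array 2 left out because its spot was an outlier. Both carriers were clearly measured in all 4 tissues and were highest in ovary, by at least 3.30 and 5.47 log2 units.

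Transcripts of enzymes that make and inactivate progesterone were far higher in ovary. Hsd3b1 stood at 7.06, 6.81 and 7.07 on the ovary arrays, against -6.34, -6.69 and -4.72 on prostate, -4.95, -4.46 and -3.20 on skin and -4.43, -7.07 and -7.01 on forebrain arrays. Hsd3b2, a close relative that also makes progesterone, stood at 7.25, 6.89 and 7.18 on the ovary arrays, against -4.76, -5.67 and -4.95 on prostate, -1.74, -2.45 and -2.04 on skin and -4.05, -5.58 and -5.06 on forebrain arrays. These relatives are near-identical in sequence, and their probes may share signal. Akr1c3, which has Akr1c18 as a synonym in RefSeq, is the 20-alpha-hydroxysteroid dehydrogenase that inactivates progesterone in rat corpora lutea. Its levels were 6.68, 7.18 and 6.76 on the ovary arrays, against -4.35, -4.63 and -5.39 on prostate, -3.42, -4.99 and -2.96 on skin and -5.49, -7.41 and -8.23 on forebrain arrays. The smallest difference of the 3 tissues was 11.18 for Hsd3b1, 9.18 for Hsd3b2 and 10.66 for Akr1c3, with skin the nearest tissue in each case (adjusted p = 1.39e-06, 1.61e-07 and 1.1e-06, limma). In skin, 1 of 3 arrays had Hsd3b1 and 1 of 3 had Akr1c3 well above background, against 3 of 3 for Hsd3b2. Hsd3b7, which serves bile acid synthesis, exceeded every other tissue by 0.93 or more.

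The enzymes of androgen and estrogen synthesis were less even between ovary arrays. Cyp17a1, the 17-hydroxylase and lyase of theca cells, stood at 0.92, -1.91 and 0.59 on the ovary arrays, against -5.77, -6.71 and -4.15 on prostate, -2.40, -2.92 and -1.62 on skin and -4.27, -5.68 and -3.94 on forebrain arrays. Ovary array 2 was the low one and overlapped the skin arrays. The difference from skin was 2.18 ± 0.84 (adjusted p = 0.0427, limma), and the adjusted p was 0.0506 to 0.146 without any 1 of ovary arrays 1 and 3, prostate array 1, skin arrays 1 and 2 and forebrain array 1. Cyp19a1, aromatase, stood at -0.59, -2.27 and 0.04 on the ovary arrays, against -6.72, -6.97 and -7.21 on prostate, -5.47, -7.01 and -7.04 on skin and -5.48, -7.20 and -7.06 on forebrain arrays. Here too array 2 was lowest, yet all 3 ovary arrays lay above the others, at least 19.5-fold above prostate and at least 10.0-fold above skin, where the probe was not well above background. Hsd17b1, which makes estradiol from estrone, stood at 5.38, 4.02 and 5.12 on the ovary arrays, against -2.64 to -0.47 on the 9 others, with a smallest difference of 5.55. With normexp background correction the adjusted p was 0.121 for Cyp17a1 and 0.0597 for Cyp19a1.

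Of the genes that store and release cholesterol, Soat1, which esterifies it, stood at -0.10, 0.65 and -0.46 on the ovary arrays, against -4.90 to -1.39 on the 9 others. Lipe, the lipase that frees it again, stood at 0.76, 0.35 and 0.44 on the ovary arrays, against -2.75 to -1.06 on the 9 others. Both were higher than in every other tissue, although for another probe of Lipe the difference from skin was -0.66. Of the 7 tested members without a call, Hsd17b7, Npc2, Srd5a1 and Cyb5a are only named here. Por, the cytochrome P450 reductase, stood at 2.69, 3.23 and 2.61 in ovary and at 4.06, 4.08 and 4.28 in prostate. Tspo, a mitochondrial cholesterol-binding protein, was at 3.37, 3.69 and 3.37 in ovary and at 3.80, 3.41 and 4.03 in skin. Of 21 tested genes of cholesterol synthesis 1, Dhcr7, was higher than in each other tissue (6.06% of all genes tested were), at 5.12, 5.28 and 5.16 on the ovary arrays, against 1.09 to 2.58 on the 9 others, while 9 were lower in ovary than in prostate (21.7% of all genes tested) and 13 were higher than in skin (28.6%). Their median difference was -0.70, 1.15 and 0.68 from prostate, skin and forebrain.

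**Figure D2:**
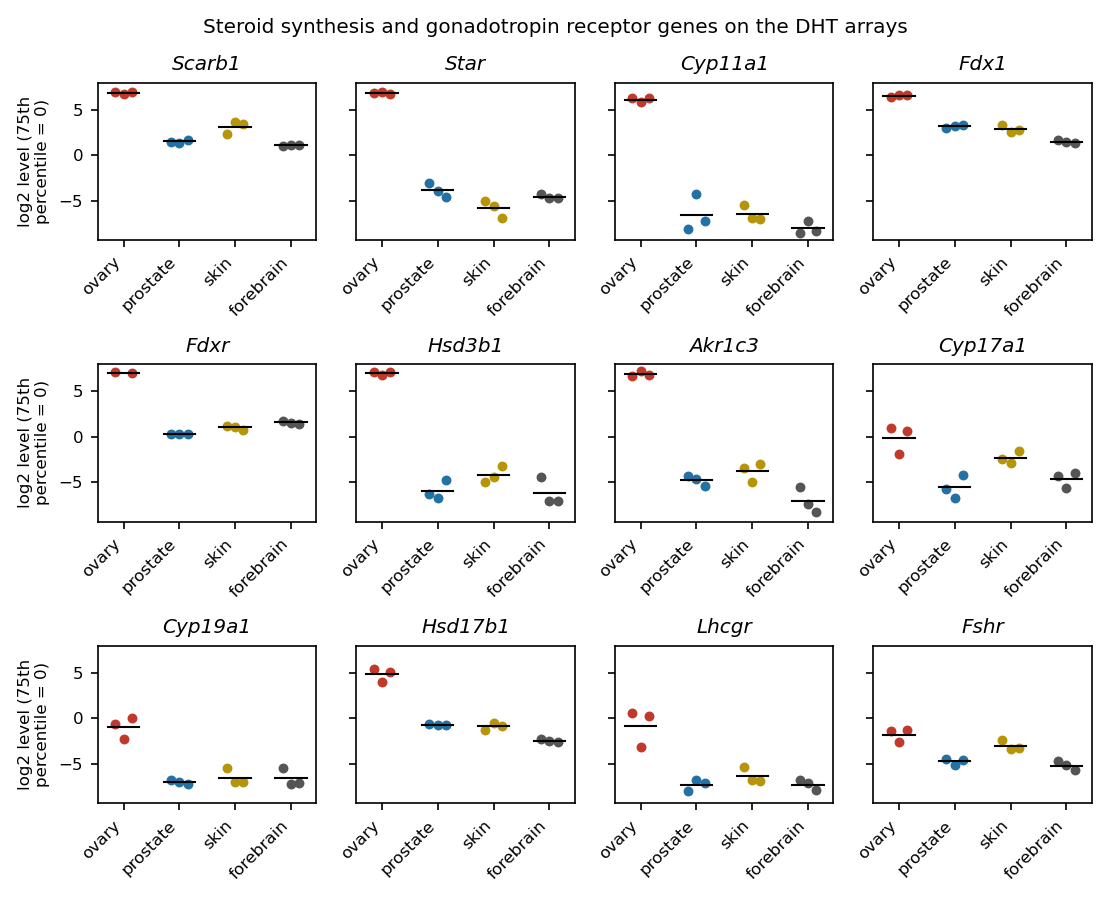
Log2 level, relative to the 75th percentile of the array, of 12 genes of steroid synthesis and gonadotropin reception. Each point is 1 DHT array, bars are means, and ovary is on the left in each panel; Fdxr has 2 ovary points because 1 spot was left out, and 1 ovary array lies low for Cyp17a1, Cyp19a1 and Lhcgr.

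All 13 genes listed as receptors of gonadotropins, prolactin and related hormones were tested, and 7 were higher in ovary than in each other tissue. Their median difference was 2.93, 3.74 and 3.87 from prostate, skin and forebrain, or 1.70, 2.72 and 3.85 with members not well above background in a tissue set at their bound. Lhcgr, the LH receptor, stood at 0.55, -3.15 and 0.24 on the ovary arrays, against -7.98, -6.79 and -7.07 on prostate, -5.29, -6.82 and -6.85 on skin and -6.81, -7.14 and -7.88 on forebrain arrays. No array outside the ovary had it well above background, so that ovary was at least 21.7-fold above prostate, 11.1-fold above skin and 32.5-fold above forebrain. Fshr, the FSH receptor, was much closer to the other tissues, at -1.44, -2.57 and -1.32 on the ovary arrays, against -4.43, -5.11 and -4.59 on prostate, -2.39, -3.35 and -3.24 on skin and -4.72, -5.16 and -5.68 on forebrain arrays. Ovary array 2 overlapped a skin array, the smallest difference was 1.21 (adjusted p = 0.0215, limma), and with normexp background correction it was -0.15. The adjusted p for Fshr was 0.064 to 0.0815 without any 1 of ovary arrays 1 and 3 and skin arrays 2 and 3.

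Amhr2, the receptor of anti-Mullerian hormone, varied little between ovary arrays, at 0.77, 0.87 and 0.66 on the ovary arrays, against -6.43 to -4.64 on the 9 others. Gnrhr, the receptor of gonadotropin-releasing hormone, stood at 0.92, 0.25 and 0.71 on the ovary arrays, against -7.98 to -2.49 on the 9 others. Ptgfr, the prostaglandin F receptor through which corpora lutea regress, stood at -0.51, 0.25 and -0.65 on the ovary arrays, against -7.94 to -3.68 on the 9 others. All 3 were separated from every other array. Oxtr, the oxytocin receptor, was 2.72 or more above the other tissues, but -0.61 with normexp background correction, and its adjusted p was 0.0566 to 0.0646 without any 1 of ovary array 1, prostate array 3 and skin array 3. Igf1r exceeded the others by at least 1.70. Without a call stood Prlr, the prolactin receptor, at 2.87, 1.69 and 2.73 in ovary and 2.18, 2.47 and 2.18 in prostate. Esr1 was at -4.35, -2.64 and -3.59 in ovary and -2.69, -3.79 and -4.02 in skin, and Esr2 at -2.09, -2.66 and -2.22 in ovary and -1.61, -1.49 and -1.82 in prostate, so that each estrogen receptor had a tissue other than ovary at a similar or higher level. Pgr was well above background on 1 ovary array and its difference from forebrain was -1.88.

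Of 24 genes listed for granulosa cells, 17 were tested, of which 9 were higher in ovary than in every other tissue and 1, Kitlg, was lower. Inha was measured in every tissue and exceeded the nearest, skin, by 6.97 ± 0.20 (adjusted p = 4.16e-08, limma). Inhba, the beta A subunit shared by inhibin and activin, stood at 4.21, 2.76 and 3.72 on the ovary arrays, against -2.85, -3.39 and -3.71 on prostate, -1.38, 0.91 and -0.15 on skin and -1.21, -1.46 and -1.22 on forebrain arrays. Amh stood at 2.91, 2.25 and 2.86 on the ovary arrays, against -3.43, -3.77 and -3.15 on prostate, -1.60, -2.95 and -2.51 on skin and -3.33, -3.43 and -3.50 on forebrain arrays, and the ovary exceeded the nearest tissue by 5.03. Nr5a2, a nuclear receptor of granulosa and luteal cells, stood at 0.24, 0.29 and 0.39 on the ovary arrays, against -8.28 to -3.66 on the 9 others. Fst, follistatin, which binds activin, was high in 3 tissues, at 4.91, 4.29 and 4.57 on the ovary arrays, against 3.86, 3.31 and 3.66 on prostate, 3.43, 3.10 and 2.70 on skin and -0.18, 0.19 and 0.46 on forebrain arrays, and exceeded prostate by 0.98 with an adjusted p of 0.0505 to 0.0517 without any 1 of ovary array 1 and prostate array 2.

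Kitlg, the ligand through which granulosa cells act on oocytes carrying Kit, lay at -5.58, -6.00 and -6.94 on the ovary arrays, against -4.43, -4.70 and -4.21 on prostate, -1.42, -2.17 and -1.76 on skin and -4.45, -5.44 and -4.91 on forebrain arrays. Its probe was dim in ovary, well above background on 2 of 3 arrays, and its difference from the nearest tissue, forebrain, was -1.24. The adjusted p was 0.0575 without either of ovary array 3 and forebrain array 1 and 0.121 with normexp background correction. Gja1, the gap junction protein of granulosa cells, was high in ovary, at 5.06, 4.78 and 5.13, and as high in forebrain, at 4.93, 4.85 and 4.60. Bex1, Grem1, Slc18a2, Wnt4, Tnfrsf11b and Esr2 had no call. Of the 17 tested granulosa genes, 12 were higher and 1 lower than in prostate (19.9% and 21.7% of all genes tested). For skin the counts were 10 and 3 (28.6% and 34.2%), and for forebrain 10 and 2 (29.8% and 25.4%). Bex1 differed from forebrain by -4.22, and Grem1 from skin by -2.25 and from forebrain by -1.14. As in any tissue sample, fewer cells of a type and less RNA per cell cannot be told apart in these levels.

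The wider family of inhibins, activins and TGF-beta ligands, with its receptors and signal proteins, had 26 tested members, of which 9 were higher and 1 lower than in every other tissue. Beside Inha, Inhba, Amh, Amhr2, Fst and Gdf9 these were Fstl3, Tgfb1 and Tgfb3. Tgfb1 stood at -0.35, 0.03 and -0.21 on the ovary arrays, against -3.76 to -0.76 on the 9 others. Fstl3, another activin-binding protein, stood at 0.67, 2.11 and 0.60 on the ovary arrays, against -2.84 to 0.15 on the 9 others, with an adjusted p of 0.0542 to 0.0748 without any 1 of prostate arrays 2 and 3. Tgfb3 exceeded prostate by only 0.56 (adjusted p = 0.0491, limma), the adjusted p was 0.0598 with the slide as a block, and it was 0.0586 to 0.183 without any 1 of ovary arrays 1, 2 and 3, prostate arrays 2 and 3, skin array 3 and forebrain arrays 1, 2 and 3. Acvr1b, an activin type I receptor, was the lower member, at -4.50, -4.13 and -4.70 on the ovary arrays, against -3.83 to -2.01 on the 9 others. The intracellular Smad2, Smad4 and Smad7 and the receptors Acvr1, Acvr2a, Acvr2b, Bmpr1a and Bmpr1b had no call against every tissue. In the comparison with skin alone, 12 of the 26 tested members were higher and 9 lower (28.6% and 34.2% of all genes tested).

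Of the 14 genes listed for theca and interstitial cells, 10 were tested and 4 were higher in ovary than in every other tissue. They were Lhcgr, Cyp17a1, Insl3 and Enpep. Insl3, a relaxin-family peptide of theca cells, stood at 0.66, 0.42 and 0.56 on the ovary arrays, against -2.84, -3.32 and -2.95 on prostate, -1.47, -1.75 and -1.90 on skin and -3.54, -4.03 and -3.89 on forebrain arrays. The ovary arrays lay within 0.23 of each other and 2.25 above the nearest tissue. Enpep, glutamyl aminopeptidase, stood at 1.71, 1.01 and 1.74 on the ovary arrays, against -3.22 to -0.17 on the 9 others. The stromal and hedgehog-related genes Nr2f2, Tcf21, Ptch1 and Bmp4 had no call, with differences nearest to 0 of 0.01, 0.36, -0.09 and -0.37.

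The luteal list held 21 genes, all tested, of which 10 were higher in ovary than in every other tissue and none lower. It shares Star, Cyp11a1, Hsd3b1, Akr1c3, Scarb1 and Ptgfr with lists above. Of the others, A2m, alpha-2-macroglobulin, a protease inhibitor of the rat corpus luteum, stood at 6.46 and 6.26 on the ovary arrays, against 1.66, 2.28 and 1.38 on prostate, -2.29, -0.46 and -1.77 on skin and 1.20, 1.45 and 0.87 on forebrain arrays, with ovary array 2 left out as an outlier spot. Apoa1, the main protein of HDL, stood at 1.15, -1.60 and 1.31 on the ovary arrays, against -6.85 to -4.07 on the 9 others. Cdkn1b, the cell cycle inhibitor p27, stood at 4.51, 3.76 and 4.35 on the ovary arrays, against 1.79 to 2.71 on the 9 others, though for another of its probes the difference from skin was -1.67. Rln1, relaxin, stood at 3.80 and 2.24 on ovary arrays 1 and 3, array 2 being an outlier spot, against -0.39, 0.02 and 0.44 on prostate, -3.05, -6.52 and -4.69 on skin and -0.24, -0.31 and -0.02 on forebrain arrays, with an adjusted p of 0.0511 to 0.132 without any 1 of ovary array 1 and prostate array 1. Mgp, Apoe and Timp1 had no call, and Mgp, an inhibitor of calcification, stood at 7.33, 7.12 and 7.19 in ovary and at 7.48 and 7.02 on the 2 prostate arrays with a value. Of the 21 luteal genes, 11 were higher and 2 lower than in prostate (19.9% and 21.7% of all genes tested). For skin the counts were 15 and 4 (28.6% and 34.2%), and for forebrain 18 and 2 (29.8% and 25.4%). Pcp4 differed from prostate by -3.41 and from forebrain by -6.32, and Apoe from skin by -1.58.

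Of 32 genes listed for oocytes, 17 had a named probe and 13 were tested. Of these 13, 7 were higher in ovary than in every other tissue and none was lower. Zp2, a glycoprotein of the zona pellucida around the egg, stood at 1.36, 0.68 and 1.25 on the ovary arrays, against -2.81, -3.96 and -6.37 on prostate, -3.23, -3.62 and -4.47 on skin and -5.27, -7.40 and -8.21 on forebrain arrays. Zp3, another, stood at -0.83, -0.87 and -1.15 on the ovary arrays, against -7.22 to -4.69 on the 9 others. Gdf9, the growth factor through which the oocyte acts on its granulosa cells, stood at 0.42, 0.66 and -0.12 on the ovary arrays, against -5.02, -4.85 and -5.39 on prostate, -3.33, -5.61 and -6.02 on skin and -3.61, -4.54 and -4.17 on forebrain arrays. Npm2, an egg chromatin protein, stood at 0.27, 0.12 and -0.23 on the ovary arrays, against -6.27 to -4.01 on the 9 others. For each of these 4 genes the ovary arrays differed by at most 0.78 and lay above every other array. Btg4, an mRNA decay factor of oocytes, stood at -3.51, -3.64 and -3.67 on the ovary arrays, against -8.11 to -5.07 on the 9 others.

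Zar1, a maternal effect protein, stood at -1.94, -1.98 and -2.23 on the ovary arrays, against -7.21 to -2.98 on the 9 others, but the smallest difference was -0.19 with normexp background correction, and the adjusted p was 0.0511 without skin array 1. Zbed3 exceeded the other tissues by 1.46 or more. With normexp background correction the adjusted p was 0.0855 for Btg4 and 0.0887 for Zbed3, and with quantile normalization it was 0.0586 for Zbed3. Bmp15, the other growth factor of the oocyte, was dim, at -5.40, -4.83 and -5.70 and well above background on 2 ovary arrays, and had no call. Lhx8, Kit, Gpr3, Bcl2l10 and Dppa3 also had no call. Bcl2l10 lay above every other array, at -1.33, -1.13 and -1.41 on the ovary arrays, against -5.45 to -1.68 on the 9 others, with an adjusted p of 0.388.

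Of 25 transcription factors listed for the ovary, 16 were tested, 5 were higher than in every other tissue and 1 was lower. Gata4, a GATA factor of the gonads, stood at 2.35, 2.54 and 2.32 on the ovary arrays, against -4.20, -6.09 and -4.85 on prostate, -5.45, -6.94 and -6.36 on skin and -7.15, -7.31 and -5.74 on forebrain arrays. It exceeded prostate, where 2 of 3 arrays had it well above background, by 7.45 ± 0.55 and was at least 102-fold above skin. Gata6, its relative, had no call, at 2.10, 0.95 and 1.65 in ovary and 0.96, -0.39 and 0.35 in skin. Nr0b1, the nuclear receptor DAX1, stood at -1.28, -2.20 and -1.11 on the ovary arrays, against -7.06 to -2.76 on the 9 others, with a smallest difference of 2.27 here and -0.05 with normexp background correction, and an adjusted p of 0.0527 to 0.116 without any 1 of ovary arrays 1 and 3 and skin arrays 2 and 3. Cebpb, a factor induced by LH in granulosa cells, stood at 2.71, 3.00 and 2.83 on the ovary arrays, against -0.91 to 1.83 on the 9 others.

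Wt1, a factor of gonadal somatic cells and surface epithelium, stood at -1.36, -0.53 and -1.30 on the ovary arrays, against -7.86 to -3.43 on the 9 others, with an adjusted p of 0.154 with normexp background correction. Nr4a1, an immediate early nuclear receptor, was the lower one, at 2.95, 2.22 and 3.43 on the ovary arrays, against 5.18, 5.09 and 4.75 on prostate, 4.99, 3.24 and 3.74 on skin and 4.57, 4.40 and 4.90 on forebrain arrays. The lowest skin array lay within the ovary range, and the adjusted p of 0.0405 became 0.05 to 0.146 without any 1 of ovary arrays 1 and 2, prostate arrays 1, 2 and 3, skin arrays 1 and 3 and forebrain arrays 1 and 2 and 0.126 with normexp background correction. Nr2f2, Tcf21, Runx1, Cebpa, Creb1, Sp1, Lhx9, Cited2 and Esr2 had no call against every tissue.

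Several of the 20 genes were members of none of these lists. Fabp6, a bile acid-binding protein best known from the ileum, stood at 7.28, 5.74 and 7.28 on the ovary arrays, against -7.90, -6.77 and -7.07 on prostate, -5.28, -6.72 and -6.86 on skin and -5.42, -7.14 and -8.12 on forebrain arrays. It was not well above background in prostate or skin, so that ovary was at least 4078-fold and 2095-fold higher, and in forebrain it was well above background on 1 of 3 arrays. Testin, a protein named from the junctions of Sertoli cells in rat testis, stood at 2.79, 3.32 and 2.35 on the ovary arrays, against -8.16 to -4.87 on the 9 others. Akr1b7, an aldose reductase of steroidogenic tissues in mouse, stood at 1.15, 3.18 and 0.60 on the ovary arrays, against -7.23 to -3.95 on the 9 others. Folr1, a folate receptor, stood at 3.79, 3.06 and 3.67 on the ovary arrays, against -4.06 to -2.63 on the 9 others.

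Several genes of this group are known from liver or kidney. Hp, haptoglobin, which binds free haemoglobin, stood at 5.17, 5.34 and 4.65 on the ovary arrays, against -1.56, -1.95 and -1.75 on prostate, -1.42, -0.73 and -1.56 on skin and -1.95, -1.32 and -1.65 on forebrain arrays. Hao2, a peroxisomal hydroxyacid oxidase, stood at 3.64, 2.15 and 3.37 on the ovary arrays, against -7.14 to -2.27 on the 9 others. Gsta2, a glutathione transferase whose close relatives may share its signal, stood at 2.42, 1.31 and 1.70 on the ovary arrays, against -7.30 to -3.80 on the 9 others. For each of these 3 genes all ovary arrays lay above all other arrays. Oit3 was well above background on no array of the other tissues, and ovary was at least 29.6-fold above skin. Cuzd1, Svs5 and Fcer2, also among the 20, differed by several log2 units between ovary arrays and are described with them.

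Markers of other cell types were counted in the same way, against 6.06% higher and 3.13% lower over all genes tested. Of 5 tested endothelial genes 3 were higher than in every other tissue: Kdr, a VEGF receptor, stood at 6.0, 4.82 and 5.71 on the ovary arrays, against 2.66 to 3.37 on the 9 others, Eng exceeded the others by 1.85 or more and Emcn by 1.79. Against skin alone, 3 of the 5 endothelial genes were higher and 1 lower. Of 9 fibroblast and matrix genes 3 were higher, namely Lum, Pdgfrb and Col5a1, by at least 2.67, 2.62 and 0.91. Against skin alone, 3 of these 9 were higher and 3 lower (28.6% and 34.2% of all genes tested). Col1a2 differed from skin by -2.19. Of 7 genes of surface epithelium and mesothelium 2 were higher, Wt1 and Upk1b. Against prostate alone, 3 of the 7 were higher and 2 lower (19.9% and 21.7% of all genes tested). Krt8 was 1 of these 2, with a difference from prostate of -3.62. For Upk1b, a uroplakin, the adjusted p was 0.0553 to 0.0725 without any 1 of ovary arrays 1 and 2, prostate arrays 2 and 3 and skin array 1. None of 8 immune cell genes, 3 red blood cell genes, 4 smooth muscle genes, 8 skeletal muscle genes or 6 keratinocyte genes was called against every tissue in either direction. Of 7 adipocyte genes 1, Pparg, was higher, at 1.38, 0.39 and 1.26 on the ovary arrays, against -5.45 to -0.59 on the 9 others, while Adipoq stood at 3.94, 4.14 and 3.86 in ovary and 3.91, 3.96 and 3.41 in prostate.

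Genes of the oviduct epithelium were also on the ovary arrays. Of 11 listed, 5 were tested and 3 were higher than in every other tissue. Compared with skin alone, 3 of the 5 were higher and 1 lower (28.6% and 34.2% of all genes tested). Msx1 had no call, with differences of -0.63, -1.06 and -0.46 from prostate, skin and forebrain. Foxj1, the switch of motile cilia, stood at 2.09, 4.05 and 3.07 on the ovary arrays, against -2.78, -4.31 and -3.86 on prostate, -2.21, -4.30 and -4.07 on skin and 0.95, 0.75 and 0.60 on forebrain arrays. Tekt1, a protein of cilia, stood at -2.59, -1.26 and -2.27 on the ovary arrays, against -6.61 to -3.22 on the 9 others, with a smallest difference of -0.33 with normexp background correction. Pax8 was dim, at -4.44, -2.33 and -3.91 in ovary, and not well above background elsewhere. For it ovary was at least 3.17-fold above prostate and at least 1.62-fold above skin. The adjusted p of Pax8 was 0.0614 to 0.101 without any 1 of skin arrays 1 and 3 (limma). The mean level of the 5 tested genes ranged from -0.32 to 1.1 over the ovary arrays, against -2.83 to -2.06 on prostate, -1.60 to -1.16 on skin and -1.59 to -0.89 on forebrain arrays. All 5 were well above background on all 3 ovary arrays. Their part in the other results was not tested.

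**Figure D3:**
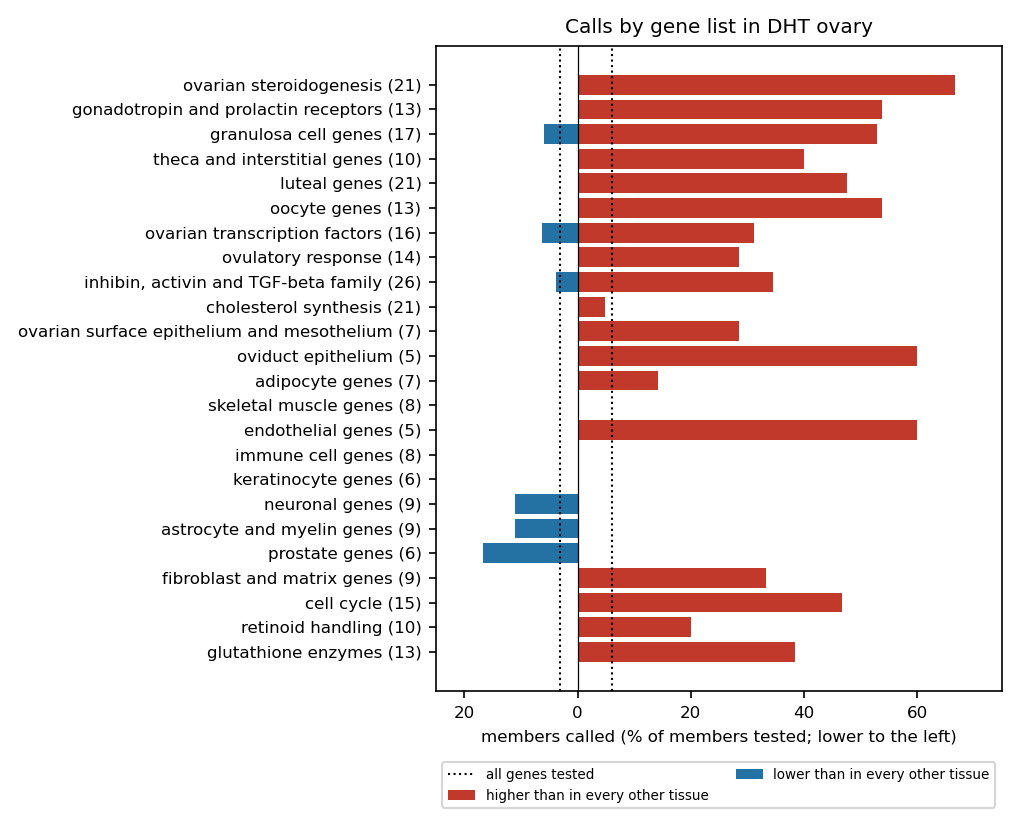
Share of the tested members of each gene list that was higher (bars to the right) or lower (bars to the left) in ovary than in every other tissue, in percent, for lists with at least 5 tested members (number in brackets). Dotted lines mark the share over all genes tested, 6.06% higher and 3.13% lower; lists with no bar had no call.

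Of the 15 genes named as farthest below every other tissue, Trim54 and Tnnc2 had the differences farthest from 0. Trim54, a protein of the muscle sarcomere, stood at -6.15, -6.64 and -7.12 on the ovary arrays, against 1.67, 1.21 and 1.71 on prostate, 5.49, 4.51 and 4.13 on skin and 1.37, 1.35 and 1.60 on forebrain arrays. It was well above background on 1 of 3 ovary arrays. Tnnc2, troponin C of fast skeletal muscle, stood at -4.47, -3.55 and -3.55 on the ovary arrays, against 3.26, 2.07 and 2.82 on prostate, 11.51, 9.54 and 9.47 on skin and 2.65, 2.73 and 2.60 on forebrain arrays. Both were highest in skin. Neither was on the list of skeletal muscle genes, of which none was called lower than in every tissue. All 8 tested genes of that list were lower in ovary than in skin (34.2% of all genes tested were), with a median difference of -13.39. Of these 8, 1 was lower than in prostate and 1 lower than in forebrain (21.7% and 25.4% of all genes tested were).

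Fgf13 and Gap43 were highest in forebrain and lowest in ovary. Fgf13, a neuronal factor that regulates sodium channels, stood at -4.02, -2.67 and -3.53 on the ovary arrays, against 1.64, 2.24 and 2.48 on prostate, 2.28, 1.39 and 1.28 on skin and 4.22, 4.06 and 4.05 on forebrain arrays. Gap43, a protein of growing axons, stood at -3.62, -3.20 and -2.98 on the ovary arrays, against -0.27, 0.10 and -0.67 on prostate, 0.76, 1.52 and 0.98 on skin and 6.03, 6.04 and 6.20 on forebrain arrays. Neither was on the list of neuronal genes. Nefl, the light neurofilament, was the 1 of 9 listed neuronal genes called lower than in every tissue (3.13% of all genes tested were). It stood at -5.70, -5.53 and -5.92 on the ovary arrays, against -4.43 to 4.03 on the 9 others. All 9 neuronal genes were lower than in forebrain (25.4% of all genes tested were). Of 9 astrocyte and myelin genes, Mobp was called lower than in every tissue, with an adjusted p of 0.0622 to 0.0699 without any 1 of prostate arrays 1 and 3. For another probe of Mobp the difference was only -0.13 from prostate and -0.59 from skin.

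The other genes farthest below were of mixed kind. Tuba4a, an alpha tubulin, was well above background on every array, at 1.81, 3.05 and 2.02 on the ovary arrays, against 6.64, 6.24 and 6.46 on prostate, 9.28, 8.13 and 7.51 on skin and 7.13, 6.89 and 6.81 on forebrain arrays. S1pr5, a receptor of sphingosine 1-phosphate, stood at -5.35, -4.97 and -6.34 on the ovary arrays, against -1.91 to 0.68 on the 9 others. Rab15, a small GTPase, stood at -7.64, -5.83 and -7.02 on the ovary arrays, against -3.15 to -0.05 on the 9 others. Kcnj12, a potassium channel of muscle, stood at -4.11, -3.21 and -4.38 on the ovary arrays, against -0.68 to 5.20 on the 9 others. In all of these every ovary array lay below every other array. Ret, a receptor tyrosine kinase, stood at -4.87, -5.35 and -5.59 on the ovary arrays, against -1.39 to 1.21 on the 9 others. Other probes of Ret differed less, by -0.65 and -1.54 from prostate and by -0.71 and -1.31 from forebrain.

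The differences nearest to 0 were -3.58 for Rnf39 and -3.11 for Rhov. Zbtb16, a transcription factor induced by androgens and glucocorticoids, stood at -4.90, -4.77 and -4.50 on the ovary arrays, against 1.05, 0.88 and 0.91 on prostate, -0.21, -0.80 and -0.28 on skin and -1.94, -1.67 and -1.37 on forebrain arrays. Egr3, an immediate early factor, stood at -5.85, -7.76 and -6.20 on the ovary arrays, against -3.70 to -2.07 on the 9 others. Usp2, a ubiquitin protease, stood at -2.47, -1.71 and -1.81 on the ovary arrays, against 0.94 to 2.13 on the 9 others. The part of DHT in these levels was not tested.

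The 3 ovary arrays differed most for a small set of genes, led by those with the widest range among the higher genes. Svs5, a seminal vesicle secretory protein, stood at -1.09, 4.51 and -1.82 on ovary arrays 1, 2 and 3, against -7.42 to -3.46 on the 8 other arrays with a value. Cuzd1, a secreted protein of epithelia, stood at -2.40, 3.64 and 0.74 on the ovary arrays, against -8.14 to -5.29 on the 9 others, where it was not well above background. Serpinc1, antithrombin, stood at -4.16, 1.09 and -0.57 and S100g, a calcium-binding protein of epithelia, at -2.77, 2.30 and -1.40 on the ovary arrays. In these 4 genes array 2 was the highest, and ovary array 1 overlapped other tissues for Serpinc1 and S100g.

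In other genes array 2 was the lowest. Cited1, a transcriptional coactivator, stood at 6.13, 1.07 and 5.93 on the ovary arrays, against -1.03 to 0.64 on the 9 others. Fcer2, a low-affinity IgE receptor, stood at 3.41, -1.30 and 3.80 on the ovary arrays, against -6.90 to -2.35 on the 9 others. Pla2g1b, a secreted phospholipase, stood at 3.14, 1.24 and 5.14 on the ovary arrays, against -4.44 to 0.54 on the 9 others. Lhcgr, Cyp17a1 and Cyp19a1, described above, were also lowest on array 2, whereas the oviduct genes Foxj1, Tekt1 and Pax8 were highest there. Star, Cyp11a1 and Inha differed by 0.23, 0.41 and 0.08 between the arrays.

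Without ovary array 2 the smallest difference became 4.59 for Svs5, 1.68 for Serpinc1, 1.51 for S100g and 1.82 for Foxj1, against 6.58, 2.83, 2.97 and 2.31 with it. It became 5.57 for Cited1, 7.75 for Fcer2 and 3.07 for Cyp17a1, against 3.92, 6.12 and 2.18. The adjusted p of Serpinc1 was 0.0511 to 0.145 without any 1 of ovary arrays 2 and 3, prostate array 2 and skin arrays 1, 2 and 3, and that of S100g was 0.0547 to 0.0962 without any 1 of skin arrays 1 and 3. That of Ldhc, a lactate dehydrogenase of germ cells whose levels were -4.15, -0.42 and -1.60 in ovary, was 0.0611 to 0.0819 without any 1 of ovary arrays 2 and 3 and skin array 3. With normexp background correction the adjusted p was 0.0866 for Svs5, 0.304 for S100g and 0.399 for Serpinc1, and the smallest difference of Ldhc was -0.16.

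**Figure D4:**
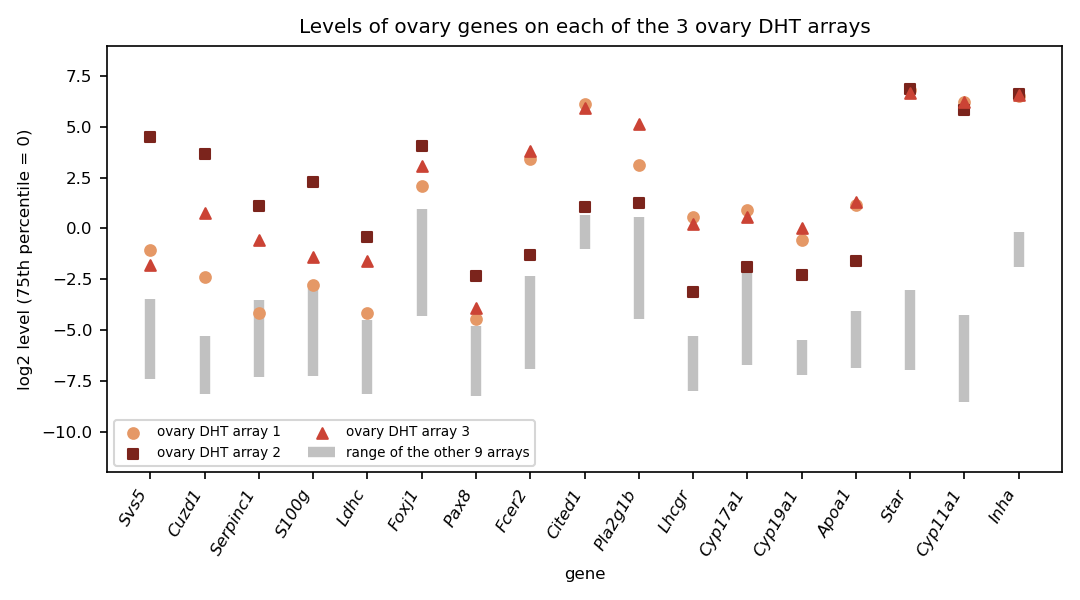
Log2 level, relative to the 75th percentile of the array, of 17 genes on each of the 3 ovary DHT arrays (symbols), with the range of the other 9 DHT arrays as a grey bar. Array 2 lies apart, above the other ovary arrays for Svs5, Cuzd1, Serpinc1 and S100g and below them for Fcer2, Cited1, Lhcgr, Cyp17a1 and Cyp19a1, while Star, Cyp11a1 and Inha hardly differ.

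The same contrast on the vehicle arrays, which are other samples, called 1460 genes higher and 137 lower in ovary than in every other tissue. It used 3 ovary, 3 prostate, 3 skin and 2 forebrain vehicle arrays, since the label of forebrain vehicle array 3 says that it failed quality control. The signal range of ovary vehicle arrays 1 and 3 was compressed: the interquartile range of log2 signal was 3.79 and 3.21 there, against 6.15 on ovary vehicle array 2. Of the 1460 higher genes 884 were shared with the DHT arrays, 48.8% of the DHT set and 60.5% of the vehicle set. Of the 137 lower genes 111 were shared, 11.8% of the DHT set and 81.0% of the vehicle set. The difference had the same sign against all 3 tissues in 94.4% of the higher genes (1707 of 1809 with a value), against 29.9% of all genes that were positive throughout, and in 57.9% of the lower genes (540 of 933), against 6.82% of all genes that were negative throughout. The median difference over all genes was 0.67, 0.41 and 0.57 from prostate, skin and forebrain on vehicle arrays. It was -0.14, -0.17 and 0.03 on DHT arrays. Of the vehicle calls against every tissue 91.4% were higher, against 65.9% on DHT arrays. The part of this upward shift in the shared calls and signs was not tested.

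The markers were high on the vehicle ovary arrays too. Star stood at 6.64, 6.35 and 6.78, Cyp11a1 at 6.12, 5.78 and 5.70 and Inha at 5.98, 6.72 and 7.06 on ovary vehicle arrays 1, 2 and 3. Cyp17a1 was uneven between vehicle ovaries as well, at 1.73, 2.87 and -1.25, and Lhcgr stood at -0.25, -1.51 and -2.16. Foxj1 was 2.92, 3.55 and 3.16 in ovary but also 2.34 and 3.10 in forebrain on vehicle arrays, and had no call there. Trim54 and Tnnc2 had no call on vehicle arrays, with differences nearest to 0 of -1.42 and -4.28, both from prostate. Skin vehicle array 1 held Tnnc2 at -3.34, against 9.85 and 9.80 on the other skin vehicle arrays. Kitlg, lower in ovary on DHT arrays, differed on vehicle arrays by 1.65 from prostate, -2.11 from skin and 2.60 from forebrain, so that ovary stayed below skin. It was at -2.77, -6.04 and -2.42 in ovary, with the uncompressed array 2 the lowest. Fgf13, at -2.64, -3.65 and -2.08 in ovary, was lower than in every other tissue there too.

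**Figure D5:**
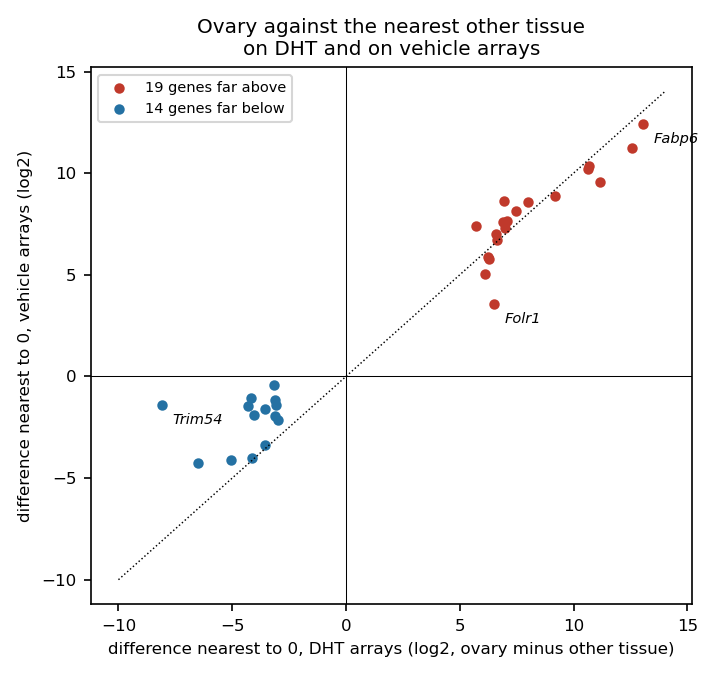
For 19 of the 20 genes farthest above and 14 of the 15 farthest below every other tissue on DHT arrays, the difference of ovary from the nearest tissue (log2) on DHT arrays (x axis) and on vehicle arrays (y axis). The dotted line marks equal differences; the genes above run from 5.72 to 13.05 on the x axis, Folr1 lying farthest under the line, and the 14 genes below lie closer to 0 on vehicle arrays.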

How the data were processed

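RNA of 24 samples was hybridised to 1-colour Agilent rat arrays. The deposited files hold the intensity of each spot as the scanner software wrote it: the authors' processed signal, already background-subtracted. Per the file headers the software was Feature Extraction 10.5.1.1, and the submitters' processing notes give 10.1. Log2 values were computed here from the deposited processed signal, minus the 75th percentile of each array. Control spots and outlier spots were left out, and of several probes of a gene the one with the highest mean level was used. Of 41012 probes, 10813 carried a symbol. Probes that 3 or more of the 12 DHT arrays had well above background were fitted with limma 3.58.1 (R 4.3.3) in 1 model of 4 tissues, with p-values adjusted over 29940 genes (Benjamini-Hochberg) and a threshold of 0.05. With 3 arrays a group, their number limits the precision.

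Each slide held the arrays of 1 number, per the file headers. Deviations from the group means correlated with a median of 0.1203 between arrays of the same number (18 pairs, -0.034 to 0.2503) and of -0.0528 between arrays of different numbers (36 pairs). The slide was a block in an alternative.

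Named genes were the 20 farthest above and the 15 farthest below every other tissue with no overlap between arrays, the 8 higher genes with the widest range over ovary arrays, the 3 markers and members of gene lists. The members and lists were chosen with earlier results of these data known. The normexp alternative (offset 50) used the median spot signal, as the files analysed here give no mean signal. The fit was tested on simulated data. Promoters were matched by symbol. Some genes are not reported here.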

Additional observations from a re-analysis of the deposited data

How the results depend on the processing

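Of 108 named genes called against every tissue, 88 kept the call with normexp background correction (14 lost it and 6 changed sign), 106 with quantile normalization, 107 with no filter on dim probes, 108 with a filter on all 3 arrays of a tissue, 102 at 2-fold and 75 on vehicle arrays (30 lost it and 3 changed sign). Their causes were not tested. With the slide (replicate number) as a block, 1780 genes were higher and 1056 lower than in every other tissue, 1707 and 881 of them shared with the fit without it, and all named genes but 3 kept the call. Rara, Serpinc1 and Tgfb3 lost it (adjusted p = 0.0508, 0.0585 and 0.0598, limma). Normexp gave 18145 genes lower than skin. The 2-fold threshold left 4153 genes lower than prostate and 527 lower than every tissue. Vehicle arrays gave 2241 lower than prostate, 3750 lower than skin, 3607 lower than forebrain and 137 lower than every tissue. With ovary vehicle array 2 alone, an alternative chosen after seeing the data in which that array is assumed to vary like the other groups, 2184 genes were higher and 1714 lower than prostate, 3396 and 4239 than skin, 3819 and 3448 than forebrain, and 533 and 200 than every tissue. Differences nearest to 0 that changed sign were, with normexp, -0.16 for Ldhc, -0.15 for Fshr, -0.61 for Oxtr, -0.0455 for Nr0b1, -0.19 for Zar1 and -0.33 for Tekt1. On vehicle arrays they were 1.65 for Kitlg (its difference from skin was -2.11), -0.35 for Tgfb3 and 0.0717 for Mobp, and with the 1 ovary vehicle array -1.40 for Serpinc1, 0.31 for Kitlg and -0.64 for Tgfb3. Leaving out 1 array gave 1394 to 2017 genes higher and 733 to 1116 lower than every tissue, 4983 to 6783 and 5268 to 7574 for prostate, 7584 to 8829 and 8882 to 10178 for skin, and 7779 to 9728 and 6058 to 8452 for forebrain. Signal over background limited skin most, where the lowest level well above background on array 1 was -3.23.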

Other observations

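Genes of cell division were higher in ovary than in each of the other 3 tissues in 7 of 15 tested cases, and none was lower than in each. Over all genes tested these shares were 6.06% and 3.13%. Against skin alone, 7 of the 15 were higher and 1 lower (28.6% and 34.2% of all genes tested). Aurka, a kinase of the mitotic spindle, stood at 0.56, 0.72 and 0.90 on the ovary arrays, against -2.43 to -1.62 on the 9 others. Aurkb, a kinase of chromosome segregation, stood at -0.39, 0.45 and -0.18 on the ovary arrays, against -7.40 to -2.55 on the 9 others. For Tyms, thymidylate synthase, and Rrm2, a subunit of ribonucleotide reductase, the smallest differences were 2.39 and 2.0. On vehicle arrays they were 0.36 and 0.16, without a call. For another probe of Rrm2 the difference from skin on DHT arrays was -2.14. The adjusted p of Rrm2 was 0.0646 to 0.0911 without any 1 of ovary arrays 1 and 3 and skin array 1 (limma), and with normexp background correction it was 0.177 for Rrm2 and 0.172 for Tyms. Of 14 tested genes of ovulation and its matrix 4 were higher (6.06% of all genes tested were), Cyp11a1 among them. Compared with forebrain alone, 9 of the 14 were higher and 5 lower (29.8% and 25.4% of all genes tested). For prostate the counts were 7 and 2 (19.9% and 21.7%), and for skin 6 and 2 (28.6% and 34.2%). Adamts1, a protease of the ovulating follicle, stood at -0.79, -0.84 and -0.51 on the ovary arrays, against -6.22 to -2.94 on the 9 others. Edn2, an endothelin, stood at 2.47, 2.40 and 3.00 on the ovary arrays, against -8.13 to 0.71 on the 9 others. On vehicle arrays the smallest difference of Edn2 was 1.45, without a call. Plat, tissue plasminogen activator, stood at -0.17, 1.42 and 0.19 on the ovary arrays, against -4.06 to -1.06 on the 9 others.

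Of 13 tested glutathione genes 5 were higher (6.06% of all genes tested were), Gsta2 among them. Gstt1, a glutathione transferase, stood at 3.78, 2.90 and 3.74 on the ovary arrays, against -2.04 to 0.08 on the 9 others. Of 10 retinoid genes 2 were higher. Against skin alone, 3 of the 10 were higher and 3 lower (28.6% and 34.2% of all genes tested). Against forebrain alone, 5 were higher and 3 lower (29.8% and 25.4%). Stra6 differed from skin by -4.17 and Cyp26a1 from forebrain by -3.27. Crabp2, a retinoic acid-binding protein, stood at 6.61, 5.60 and 6.47 on the ovary arrays, against -0.50 to 5.47 on the 9 others, with an adjusted p of 0.0754 to 0.0841 without any 1 of ovary arrays 1 and 3 and skin array 1. Rara, a retinoic acid receptor, exceeded every other tissue by 0.63 or more, with an adjusted p of 0.0533 to 0.106 without any 1 of ovary arrays 2 and 3, prostate arrays 1 and 3 and skin array 2. In 53 of the higher genes, 16 of them with a symbol, no array outside the ovary had the probe well above background. Agtr2, an angiotensin receptor, was 1 of these, with a mean of -2.01 ± 0.53 on the ovary arrays (SD, n = 3), at least 9.27-fold above prostate, 4.76-fold above skin and 13.9-fold above forebrain. Zp4, another zona pellucida protein, had a mean of -3.06 ± 0.44 on the ovary arrays (SD, n = 3), at least 4.48-fold above prostate and 2.30-fold above skin.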
